A study of Mus musculus with 3 samples.

Results

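*Ccl17*, *Ccl22* and *Ccl5*, 3 of the 32285 genes in the count matrices, are chemokine genes that were chosen by name: the genes of both ligands of the receptor CCR4, and *Ccl5*. CCL17 and CCL22 attract cells that carry CCR4, among them regulatory T cells and Th2 cells, and dendritic cells are a known source of both. CCL5 acts through receptors that include CCR1 and CCR3 on T cells, NK cells, monocytes and eosinophils, and activated T cells and NK cells make it in large amounts. Conventional dendritic cells (cDCs) fall into cDC1s, which cross-present antigen to CD8 T cells, and cDC2s. Activated cDCs of both kinds can express *Ccr7*, the receptor that guides them to lymph nodes, but not every activated state carries it.

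The 3 droplet libraries, 1 per genotype, held dendritic cells sorted on day 5 from MCA205 LA-OVA tumours, a transplanted mouse fibrosarcoma that carries the model antigen ovalbumin. The WT library pooled 25 male and 12 female mice. Mice without secreted gelsolin gave the *sGsn-/-* library (15 males, 16 females). Mice that also lack the receptor DNGR-1 gave the *sGsn-/- Clec9a-/-* library (10 males, 17 females), and all were 6 to 20 weeks old. Sorting kept live CD45+ CD11c+ MHCII+ CD88− cells outside a lineage gate that held CD3e and NK1.1 among others, and pre-cDCs, XCR1+ cDC1s and Sirpα+ cDC2s were mixed in set proportions, so the sizes of cell groups are not those in the tumour. A pooled library gives no spread between mice, and with 1 library per genotype no difference between genotypes was tested.

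A UMI is a tag that marks 1 captured transcript. The libraries held 176578136, 109270958 and 113411930 UMIs in 12763, 8173 and 9273 barcodes (WT, *sGsn-/-* and *sGsn-/- Clec9a-/-*, the order of all values given by library), and 81 barcode sequences occurred in more than 1 library, 7 of them among the cDC1s. A deposited table places 2316, 1712 and 1778 of these barcodes in 12 cDC1 clusters, which the study groups as early (clusters 4 and 1), resting (5, 2, 3, 6 and 0) and activated (7, 8, 9 and 10), with cluster 11 taken as probably dying cells. Among the activated clusters the study names *Ccr7* and *Il12b* for cluster 8 and *Cxcl9* and *Cxcl10* for cluster 10. As a check of the *Clec9a* label, *Clec9a*, the gene of DNGR-1, gave 168, 168 and 0.0931 CPM over all cDC1s, the last from 2 UMIs. *Gsn*, counted over all its transcripts, gave 152, 169 and 167 CPM and does not separate WT from the other libraries, so that label was not checked by it. Levels are in CPM, counts per 1e6 UMIs of a sum over cells, and means over the libraries are given ± SD (n = 3), an SD that also contains any difference between genotypes. Intervals are exact 95% intervals (Poisson for CPM, Clopper-Pearson for shares) and cover counting error only.

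The members were spread differently over the cell classes, while within the cDC1 table cluster 8 held most of the UMIs of each. Over all barcodes *Ccl17* gave 29546 UMIs, of which 10.04% lay in the deposited cDC1s, 39.7% in monocyte- or macrophage-like cells and 27.7% in cDC2-like cells outside the table. Of the UMIs of all genes these groups held 19.5%, 30.3% and 13.5%, in that order. *Ccl22* gave 12320 UMIs, 39.3% in the cDC1 table and 30.9% in a small class of activated cDC-like cells outside it. *Ccl5* gave 169223 UMIs, 60.0% in NK cell-like and 10.6% in T cell-like barcodes and 5.53% in the cDC1s. Within the table, cluster 8, with 4.39% of the cDC1s, held 53.7% of the *Ccl17* UMIs, 90.1% of those of *Ccl22* and 88.9% of those of *Ccl5*, and cluster 10, with 1.31% of the cells, held a further 16.7% of those of *Ccl17*.

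*Ccl17* (ENSMUSG00000031780) was counted in cluster 8 at 499.9, 607 and 589.9 CPM, a mean of 566 ± 57.5 from 1591 UMIs. Cluster 10 gave 1201, 493 and 10.04 CPM (intervals 1077 to 1336, 418 to 578 and 2.07 to 29.3) from 339, 153 and 3 UMIs, a mean of 568 ± 599. Its level was thus alike in the 3 libraries of cluster 8, though 1 cell held 127 of the 304 UMIs of the *sGsn-/- Clec9a-/-* library. In cluster 10 the level spread over a wide range, with that library at the level of the resting cells. Next came cluster 5 (30.9 ± 21.8 CPM), cluster 4 (28.0 ± 22.5) and cluster 9 (21.1 ± 12.7), then clusters 1, 2, 6, 0 and 7 with means of 12.6, 9.45, 8.88, 6.94 and 5.30 CPM, cluster 3 at 2.56 ± 1.94 CPM and cluster 11 with no UMI. In that order the ranges of neighbours overlapped everywhere except between clusters 8 and 5 and between clusters 3 and 11. Within the resting cells cluster 5 stood above cluster 3 in each library, 6.13, 39.1 and 47.3 CPM against 4.08, 0.376 and 3.24 CPM. That level rested on few cells, as 20 of the 510 cells of cluster 5 held all 200 *Ccl17* UMIs.

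*Ccl22* (ENSMUSG00000031779) was counted in cluster 8 at 2153, 1178 and 1244 CPM, a mean of 1525 ± 545 from 4359 UMIs. In cluster 10 it was at 397, 25.8 and 0 CPM from 112, 8 and 0 UMIs, a mean of 141 ± 222, and 67 of the 112 WT UMIs lay in 1 cell. No other cDC1 cluster came near cluster 8, whose lowest library stood above the highest of cluster 10. Cluster 9 followed with 34.6, 46.9 and 23.7 CPM and cluster 7 with 14.5, 14.7 and 2.85 CPM. Clusters 4, 6, 0, 3, 5, 1 and 2 had means between 6.46 and 1.88 CPM, with overlapping ranges between all neighbours, and cluster 11 had no UMI. Activated clusters thus took the 4 highest places for this gene, and cluster 9 was above cluster 7 in each library.

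*Ccl5* (ENSMUSG00000035042) was counted in cluster 8 at 2959.7, 3383 and 1867 CPM, a mean of 2737 ± 782 from 8315 UMIs. All other clusters lay far lower. Cluster 11 gave 80.7 ± 42.2 CPM from 14 UMIs, cluster 4 37.9 ± 24.2 CPM and cluster 10 20.9 ± 14.2 CPM. The remaining 8 clusters had means between 15.8 and 10.6 CPM, and all neighbours after cluster 8 overlapped. Across these clusters the WT library was the lowest of the 3 in each, with 5.82, 17.5 and 12.1 CPM over the resting cells together. In cluster 10 its 7.09, 35.4 and 20.1 CPM, from 19 UMIs, lay above the resting level in each library.

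**Figure D1:**
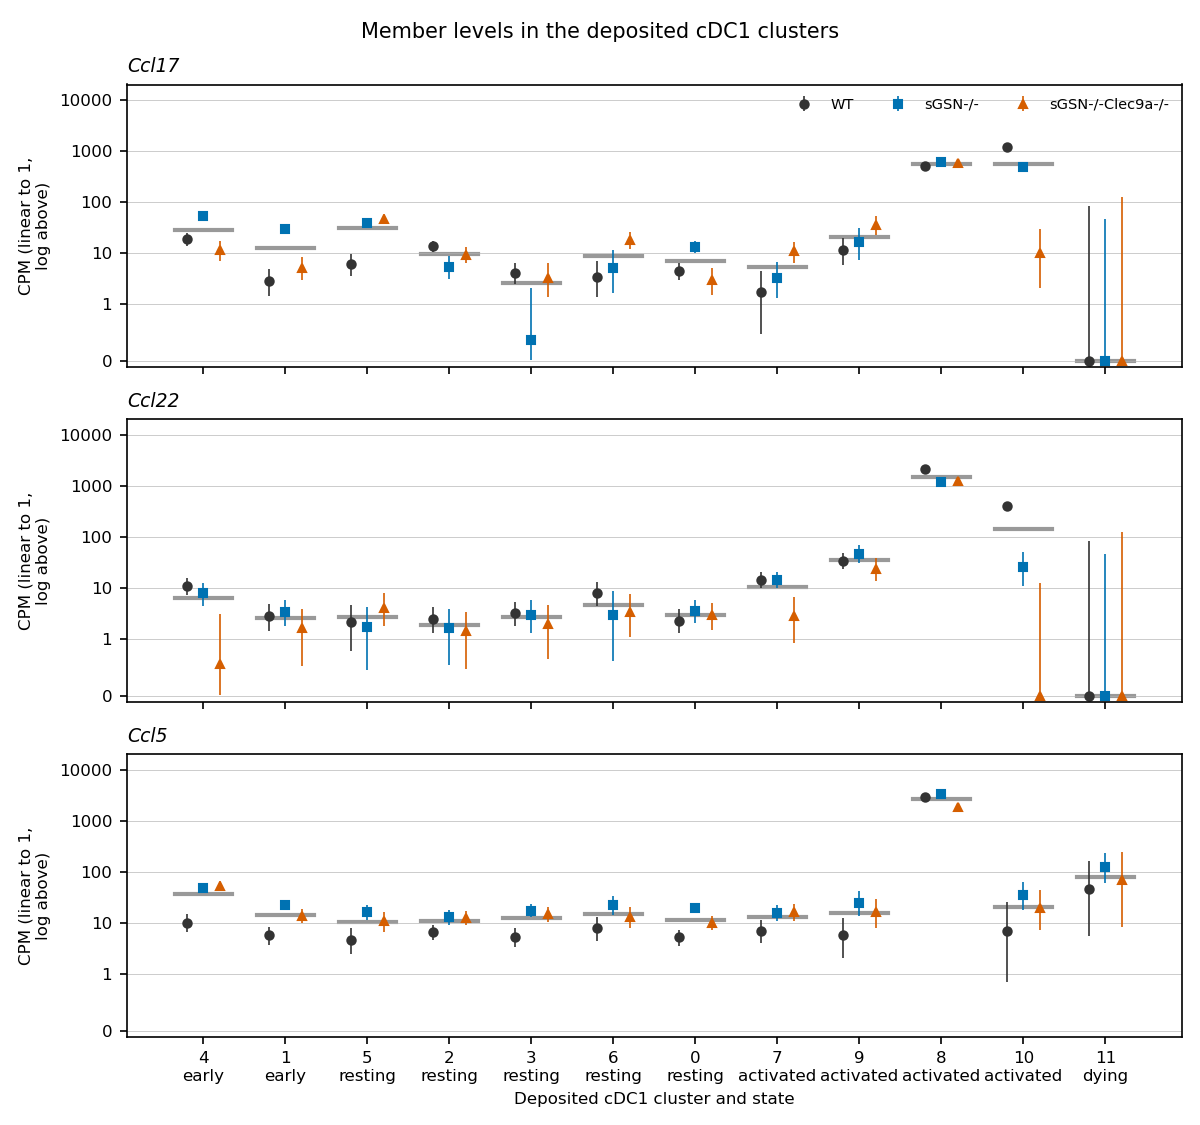
Level of each member (CPM, axis linear up to 1 and logarithmic above) in the 12 deposited cDC1 clusters, grouped by state. Points are libraries with exact 95% Poisson intervals and grey bars their means; *Ccl22* and *Ccl5* stand highest in cluster 8 (1525 and 2737 CPM), while the libraries of cluster 10 run from 10.04 to 1201 CPM for *Ccl17*.

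Differences between groups of cells were tested on UMI sums per library by the quasi-likelihood method of edgeR, Benjamini-Hochberg (BH) adjusted over 8536 genes at a threshold of 0.05. Since these counts also defined the clusters, an adjusted p speaks of the likeness of the libraries only, and the 5 comparisons with resting cDC1s share those cells. In cluster 8 all 3 members rose over resting cDC1s, where 49.7% of the genes tested were called (25.7% higher and 24% lower), and each was higher in all 3 libraries. The log2 fold change was 5.93 (standard error 0.545, adjusted p = 8.1e-10, edgeR) for *Ccl17*, 9.26 (0.512, 2.9e-14) for *Ccl22* and 8.09 (0.401, 2.9e-15) for *Ccl5*. By log2 fold change these were places 71, 12 and 25 of 8536. All 4 macrophage markers tested of the 8 listed were also called higher, 2 of 3 NK markers and the 1 T cell marker tested, and 5 of 7 cDC1 markers lower. Higher too were 2 of 5 cDC2, 3 of 5 pre-cDC, 3 of 4 proliferating and 1 of 3 plasmacytoid markers tested, and the 1 B cell marker tested was lower. The 8 macrophage genes, all counted, stood together at 528, 48.8 and 69.9 CPM in cluster 8, most of all *Apoe* (103 CPM), and at 52.5, 38.3 and 43.9 CPM in resting cells. The WT library thus carried most of that level. In cluster 8 *Ccl22* was also highest in the WT library, at 2153 CPM, and *Ccl17* and *Ccl5* in the *sGsn-/-* library. The part of other cells in the members' levels was not tested. Cluster 10 had 2 of the 3 members called higher, where 15.1% of the genes tested were called (8.53% higher and 6.53% lower). *Ccl17* rose by 5.68 (standard error 0.583, adjusted p = 5.1e-08, edgeR) and *Ccl22* by 5.54 (0.711, 2.2e-06), while *Ccl5*, at 0.87 (0.934, 0.62), did not pass. *Ccl17* and *Ccl22* were not above the resting cells of the *sGsn-/- Clec9a-/-* library, at 10.04 and 0 CPM in cluster 10. Of the cDC2 markers 1 of 5 tested was called higher there, *Cd209a* (210.5 CPM), and the list of 6, of which 5 were counted, stood together at 138, 506 and 100.4 CPM against 23.9, 21.5 and 21.97 CPM in resting cells. Whether this bears on the members was not tested. The WT library carried much of the rise: without it *Ccl17* in cluster 10 was at 4.33 (adjusted p = 0.0006, edgeR) and *Ccl22* at 2.33 and no longer called (adjusted p = 0.22, edgeR).

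The activated clusters 8 and 10 were also compared directly, to ask which member separates them. *Ccl22* and *Ccl5* were higher in cluster 8, 2 of 3 members where 28.2% of the genes tested were called (15.7% higher and 12.5% lower), with log2 differences of 3.71 (standard error 0.473, adjusted p = 9e-07, edgeR) and 7.22 (0.532, 1.1e-10). *Ccl17* did not differ beyond the spread (0.25, standard error 0.500, adjusted p = 0.76, edgeR). Leaving out the WT library moved *Ccl22* to 6.73, and leaving out the *sGsn-/- Clec9a-/-* library turned *Ccl17* to -0.31 (adjusted p = 0.56, edgeR). With each library left out in turn *Ccl17* ran from -0.31 to 1.45. Of 4 macrophage markers tested 3 were called higher in cluster 8 and 1 lower. Of 7 cDC1 markers 3 were lower and 0 higher, and of 5 cDC2 markers 1 was lower and 0 higher. Whether this bears on the members was not tested.

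For early cells and clusters 7 and 9 fewer members were called. In cluster 9, 1 of 3 members was called higher, where 5.32% of the genes tested were called (3.99% higher and 1.32% lower): *Ccl22*, at 3.61 (standard error 0.775, adjusted p = 0.0035, edgeR), higher in all 3 libraries. Without the *sGsn-/-* library it was 3.38 and not called (adjusted p = 0.081, edgeR). In cluster 7, 0 of 3 members were called in either direction, where 17.9% of the genes tested were (11.8% higher and 6.1% lower). At an unadjusted p under 0.05 it was 1, *Ccl22* (2.07, standard error 0.757, adjusted p = 0.059, edgeR), and DESeq2 called 0. With the library as a block that value was 2.10 and passed (adjusted p = 0.012, edgeR), and it also passed without the WT library (1.89) and without the *sGsn-/- Clec9a-/-* library (2.42). Early cells had 0 of 3 members called, where 34.2% of the genes tested were (16.1% higher and 18.1% lower). DESeq2 also called 0, and at an unadjusted p under 0.05 it was 1, *Ccl5* (0.95, standard error 0.374, adjusted p = 0.052, edgeR). It passed with the library as a block (0.93, adjusted p = 0.0081, edgeR) and without the WT library (1.04). For *Ccl17* in early cells, 0.78 (0.580, 0.32) became 1.26 and passed without the *sGsn-/- Clec9a-/-* library and became -0.21 without the *sGsn-/-* library.

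Cell by cell, the share of cluster 8 with at least 1 UMI was 45.2%, 28.1% and 31.6% for *Ccl17* (34.3 to 56.5, 20.1 to 37.3 and 19.9 to 45.2). For *Ccl22* it was 82.1%, 75.4% and 77.2%, and for *Ccl5* 59.5%, 75.4% and 38.6% (48.3 to 70.1, 66.5 to 83.0 and 26.0 to 52.4). These intervals take cells as the unit. With 1 library per genotype and unlike depths, whether they overlap between libraries does not compare genotypes. NK cell-like barcodes, which should lack the CCR4 ligands, held a *Ccl17* UMI in 1.42%, 1.90% and 0.939% and a *Ccl22* UMI in 1.42%, 1.55% and 0.469%, at median depths of 9656, 7534.5 and 6333 UMIs against 12310.5, 11035.5 and 8459 in cluster 8. Resting cDC1s held *Ccl17* in 2.78%, 3.52% and 3.22% and *Ccl22* in 3.39%, 2.99% and 2.49%, at 14423.5, 14749 and 12725.5 UMIs. The resting shares lay above that background in each library, in deeper cells. At equal depth, of 3900 UMIs per cell, resting cells held *Ccl17* in 1.10%, 1.65% and 2.23% against 0.604%, 0.513% and 0.463% in NK cell-like barcodes, and *Ccl22* in 1.17%, 1.10% and 1.07% against 0.725%, 0.684% and 0.348%. They stayed higher in each library, and the intervals overlapped except for *Ccl17* in the *sGsn-/- Clec9a-/-* library.

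Equal depth was reached by drawing 3900 UMIs from each cell and leaving out shallower ones, 288 of the cDC1s and 57 of the 255 cells of cluster 8. In cluster 8 the shares became 41.4%, 32.1% and 34.1% for *Ccl17*, 80.0%, 79.8% and 70.5% for *Ccl22* and 57.1%, 69.0% and 34.1% for *Ccl5*. In resting cells *Ccl5* went from 7.72%, 21.2% and 12.2% to 1.65%, 6.92% and 4.36%. Over the same deep cells before the draw, cluster 8 held *Ccl17* in 51.4%, 38.1% and 38.6%, *Ccl22* in 91.4%, 86.9% and 84.1% and *Ccl5* in 64.3%, 76.2% and 36.4%. A draw from the same cells can only keep or lower a share, and the cells left out were the shallow ones.

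Few cells held most of each chemokine's UMIs. The 26 cells of cluster 8 with the most held 81.3% of the *Ccl17*, 51.1% of the *Ccl22* and 64.8% of the *Ccl5* UMIs, chosen for each gene in turn. The highest single cell carried 154 UMIs of *Ccl17*, 194 of *Ccl22* and 368 of *Ccl5*. The median cell of cluster 8 held 0, 5 and 2 UMIs, respectively. In cluster 10, 18 of 76 cells held a *Ccl17* UMI and 8 cells held 94.7% of them.

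In cluster 8, where 199 of 255 cells held *Ccl22*, *Ccl17* lay almost wholly in such cells. There 84 of the 88 cells with *Ccl17* also had *Ccl22*, while 115 had *Ccl22* without *Ccl17*, and the cells with *Ccl22* held all 516 of the WT, 98.7% of the *sGsn-/-* and 98.4% of the *sGsn-/- Clec9a-/-* *Ccl17* UMIs. A UMI of *Ccl17* was found in 42.2% of the cells with *Ccl22* and 7.14% of those without, and at equal depth in 40.3% and 20.5%. *Ccl22* itself stood at 2699.7, 1886 and 1972 CPM in cells with *Ccl17* and at 1425, 757 and 865 CPM in the others, higher with *Ccl17* in each library. In cluster 10 all 8 cells with *Ccl22* also held *Ccl17*, and 10 held *Ccl17* without *Ccl22*. In resting, early and cDC2-like cells most cells with *Ccl17* lacked *Ccl22*, 101, 60 and 452 cells against 8, 5 and 149 with both, but few of these cells held *Ccl22* at all. *Ccl17* was found in 7.62%, 16.1% and 38.7% of their cells with *Ccl22* and in 2.98%, 4.61% and 12.9% of those without over the 3 libraries together. By library the share was higher with *Ccl22* in all 3 for cDC2-like cells, while in early cells of the *sGsn-/- Clec9a-/-* library 0 of 5 cells with *Ccl22* held *Ccl17*, and in resting cells of the *sGsn-/-* library the shares were 3.57%, from 1 cell, and 3.52%.

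*Ccl5* followed *Ccl17* less closely. Of the 255 cells of cluster 8, 52 held all 3 genes (22, 21 and 9 by library) and 22 held none. Cells with a *Ccl5* UMI carried 326 of 516, 282 of 771 and 95 of 304 *Ccl17* UMIs. In the *sGsn-/-* library *Ccl17* was at 1318 CPM in the 28 cells without *Ccl5* and at 314 CPM in the 86 with it, in the WT library at 525 and 486 CPM, and in the *sGsn-/- Clec9a-/-* library at 558 and 675 CPM. The libraries therefore differed in direction. These counts within 1 cluster were not tested.

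**Figure D2:**
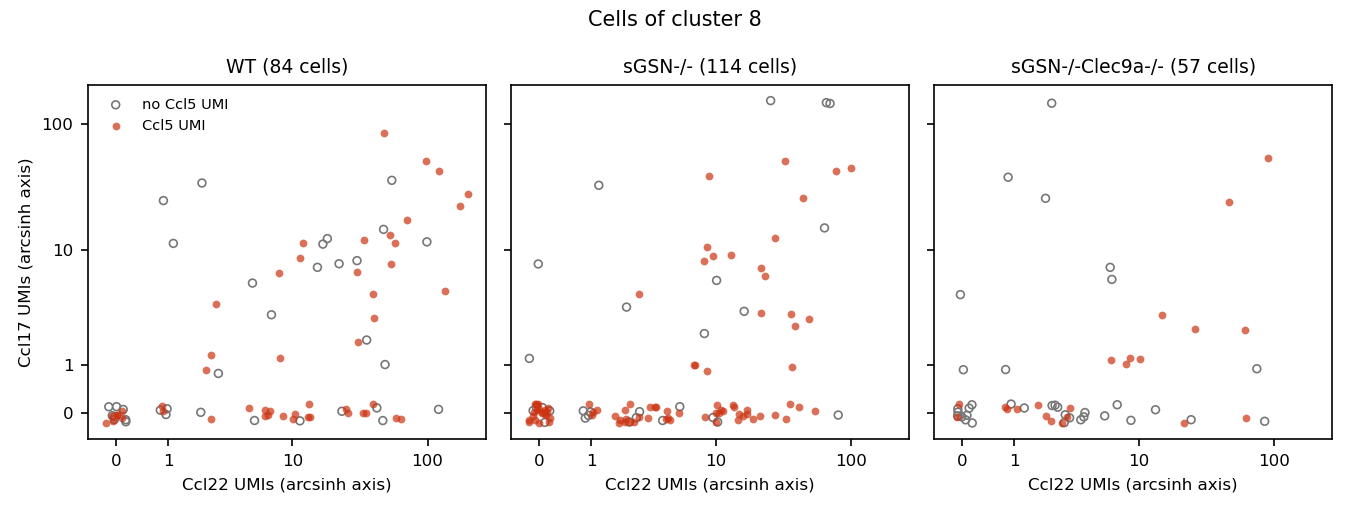
UMIs of *Ccl22* (horizontal) and *Ccl17* (vertical) in each cell of cluster 8, a panel per library, on arcsinh axes with small random shifts that keep equal cells apart. Filled points hold at least 1 *Ccl5* UMI; of all 88 cells with *Ccl17*, 84 lie to the right of 0 for *Ccl22*.

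For *Ccl5*, NK and T cells in the same suspension are a possible source of free RNA, so their transcripts were counted beside it. The 7 NK genes together (*Ncr1*, *Klrb1c*, *Eomes*, *Gzma*, *Nkg7*, *Prf1* and *Klre1*) were at 15.9, 40.0 and 25.2 CPM in resting cDC1s and at 6926 ± 705 CPM in NK cell-like barcodes. In resting cDC1s there were 0.366, 0.439 and 0.481 *Ccl5* UMIs per NK UMI. In NK cell-like barcodes of the same libraries there were 0.324, 0.391 and 0.505. These sums differ in make-up, as *Klre1* gave 345 of the 1211 NK UMIs in resting cells and 22233 of 250924 in NK cell-like barcodes. Per *Gzma* UMI there were 1.01, 0.915 and 1.17 *Ccl5* UMIs in resting cells against 0.629, 0.718 and 0.902 in NK cell-like barcodes, and per *Nkg7* UMI 2.32, 2.46 and 3 against 1.51, 1.91 and 2.48. By either gene alone the ratio was higher in resting cells in each library.

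Cluster 8 stood apart from that ratio, at 153, 24.7 and 48.1 *Ccl5* UMIs per NK UMI. All 7 NK genes were counted there, at 19.4, 137 and 38.8 CPM together, most of all *Gzma* (34.1 ± 38.1 CPM), while *Ncr1* gave 0, 11 and 0 UMIs and *Cd3e* 0, 2 and 0. The 8 T cell genes (*Cd3e*, *Cd3d*, *Cd3g*, *Trac*, *Trbc2*, *Cd8a*, *Cd4* and *Foxp3*) were together at 17.9 ± 14.2 CPM, most of all *Cd8a* (10.6 ± 7.88 CPM), a gene that some dendritic cells express, with *Foxp3* at 0. The 239 cells of cluster 8 without a UMI of *Ncr1*, *Klrb1c*, *Cd3e*, *Cd3g* or *Trac* had *Ccl5* at 3205, 3458 and 1826 CPM, close to the whole cluster in each library. The *sGsn-/-* library carried most of the NK transcripts of cluster 8, and *Ccl5* there without those cells was 3458 against 3383 CPM with them.

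Cluster 4 lay between. Its ratio was 0.456, 1.18 and 2.13 *Ccl5* UMIs per NK UMI, above that of NK cell-like barcodes in each library and most so in both *sGsn-/-* lines, from 26, 99 and 96 *Ccl5* UMIs. Clusters 5, 2, 3, 6, 0, 1 and 7 had ratios from 0.228 to 0.725. In cluster 9 the ratios of 0.273, 0.667 and 1.38 rested on 6, 14 and 11 *Ccl5* UMIs, and in cluster 10 those of 0.500, 0.647 and 0.857 on 2, 11 and 6. T cell-like barcodes held 1.99, 1.81 and 1.98 *Ccl5* UMIs per NK UMI. The share of free NK and T cell RNA in the *Ccl5* of these clusters was not tested.

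**Figure D3:**
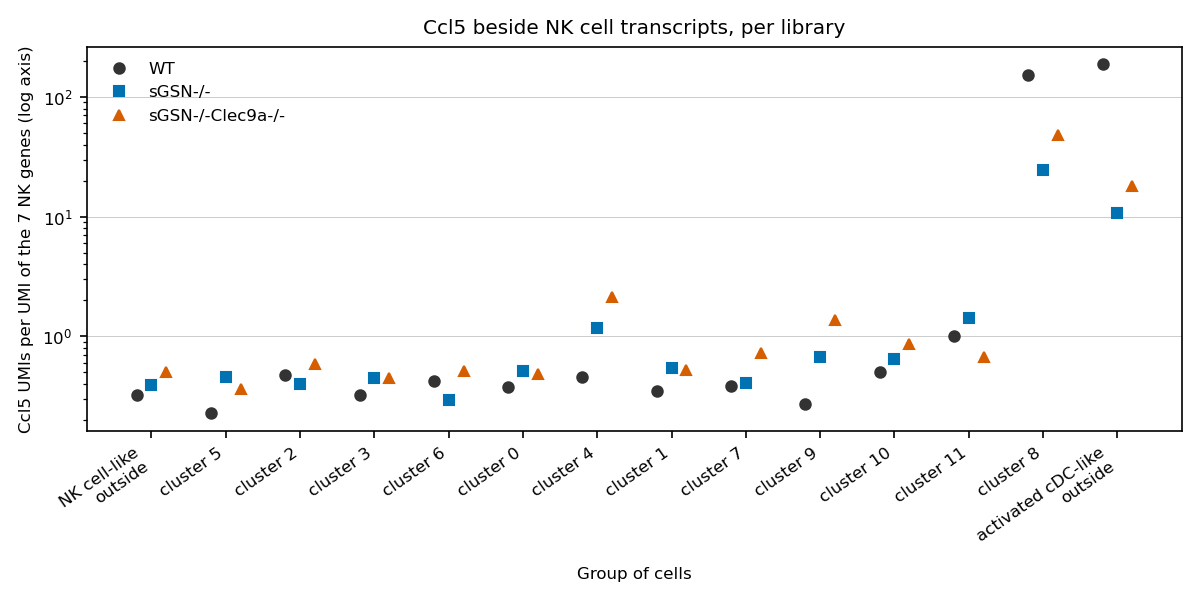
*Ccl5* UMIs per UMI of the 7 NK genes (logarithmic axis) in NK cell-like barcodes, the 12 deposited cDC1 clusters and activated cDC-like cells outside the table, a point per library. Resting clusters 5, 2, 3, 6 and 0 lie between 0.228 and 0.581, NK cell-like barcodes between 0.324 and 0.505, and cluster 8 lies at 153, 24.7 and 48.1.

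Outside the table, cells were sorted into classes by clustering all barcodes without the 3 members and naming clusters from marker genes. Of the 24 clusters 8, with 6399 barcodes, were left unnamed because they were shallow, mostly doublets or short of markers. The activated cDC-like class held 434 barcodes, 223 of them in the deposited table and 211 (94, 93 and 24) outside it. Those outside had *Ccr7* at 1962 ± 135 CPM, against 2001 ± 723 in cluster 8 and 14.8 CPM in cDC2-like cells. They carried cDC2 markers (*Sirpa* 79.0, *Itgam* 77.0 and *Cd209a* 93.3 CPM, against 10.9, 5.57 and 7.45 in cluster 8) and less of the cDC1 marker *Xcr1* (18.5 ± 11.7 against 149 ± 29.9 CPM), but also the macrophage gene *C1qa* at 192 CPM. They are therefore called activated cDC-like cells here and not cDC2s.

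*Ccl17* was counted in these activated cells at 453, 383 and 421 CPM. cDC2-like cells followed with 106, 261 and 159 CPM, cDC1-like cells outside the table with 146, 118 and 70.2 CPM and monocyte- or macrophage-like cells with 92.3, 116 and 90.7 CPM. The activated class lay above all others in each library, and the ranges of the next 3 classes overlapped one another. Unnamed clusters together were at 47.8 CPM, below these and above the rest. Proliferating-like, T cell-like and plasmacytoid-like cells had means of 13.8, 12.02 and 5.17 CPM, and NK cell-like cells were lowest at 2.999 ± 1.04 CPM. The share of cells with a *Ccl17* UMI was 14.4%, 17.8% and 15.7% in cDC2-like cells, and 8.93%, 10.7% and 10.7% at equal depth, where NK cell-like cells had 0.604%, 0.513% and 0.463%. *Ccl17* was thus present in cDC2-like cells at a share well above that background. Within the cDC1-like class 1 of 3 clusters, singled out after its values were seen, held 1651 of the 2375 *Ccl17* UMIs, at 233 ± 60.1 CPM. It was led by interferon-induced genes such as *Ifit3* and *Cxcl9* and had 4 of 8 macrophage markers beside 5 of 7 cDC1 markers.

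*Ccl22* was more confined. Activated cells outside the table had it at 1026, 1265 and 1425 CPM, and the next classes were cDC1-like cells at 25.2 ± 4.36 CPM and cDC2-like cells at 21.998 ± 7.76 CPM, whose ranges overlapped. The same interferon gene-led cluster held 431 of the 490 *Ccl22* UMIs of the cDC1-like class, and the other 2 clusters of the class were at 3.03 and 7.28 CPM. T cell-like, monocyte- or macrophage-like, unnamed and proliferating-like cells had means of 14.1, 11.9, 9.49 and 5.07 CPM, and plasmacytoid-like and NK cell-like cells 2.25 and 2.03 CPM, all neighbours overlapping. *Ccl22* was found in 89.4%, 86.0% and 75% of the activated cells and in 10.1%, 11.3% and 8.37% of the cDC2-like cells. At equal depth these were 72.8%, 70.2% and 52.2% and 4.44%, 4.74% and 4.36%. Of the 83 activated cells outside the table with *Ccl17*, 80 also held *Ccl22*, nearly all of them, as in cluster 8, and 70 of the 211 held all 3 genes.

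For *Ccl5* the activated cells stood among the lymphocytes. Outside the table, T cell-like cells had 3797, 3684 and 5411 CPM, activated cells 4283, 4449 and 2265 CPM and NK cell-like cells 2001, 2740.2 and 3832 CPM, and the ranges of these 3 classes overlapped. The NK cell-like class pooled 2 clusters, with *Ccl5* at 3746 CPM in the larger and 536 CPM in the other, which had all 5 proliferating markers. The *sGsn-/- Clec9a-/-* library was the highest of the 3 in NK cell-like and T cell-like cells and the lowest in activated cells. Unnamed clusters came next at 283 ± 133 CPM, apart from the classes on either side, and held 7.92% of all *Ccl5* UMIs. Of their 13395 UMIs 11272 lay in 1 cluster with all 7 NK markers and 96.3% of its 379 barcodes among the highest Scrublet doublet scores, while the largest unnamed cluster was at 19.96 CPM. Plasmacytoid-like (102 CPM), cDC1-like (98.1), monocyte- or macrophage-like (69.6), cDC2-like (56.8) and proliferating-like cells (24.4) followed with overlapping ranges. The interferon gene-led cluster held 1949 of the 2169 UMIs of the cDC1-like class, whose other clusters were at 14.2 and 22.3 CPM. In barcodes outside the table with a UMI of *Ncr1* or *Cd3e*, 4204 in all, *Ccl5* was at 1721, 1946 and 2759 CPM, against 114, 296 and 152 CPM in the 20199 others. The activated cells outside the table held 187, 10.8 and 18.1 *Ccl5* UMIs per NK UMI, and their NK genes stood at 22.9, 411 and 125 CPM. In the WT library *Ccl5* was therefore high there beside few NK transcripts. In cDC2-like cells the ratio was 1.44, 1.20 and 1.19, above that of NK cell-like and below that of T cell-like barcodes in each library.

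**Figure D4:**
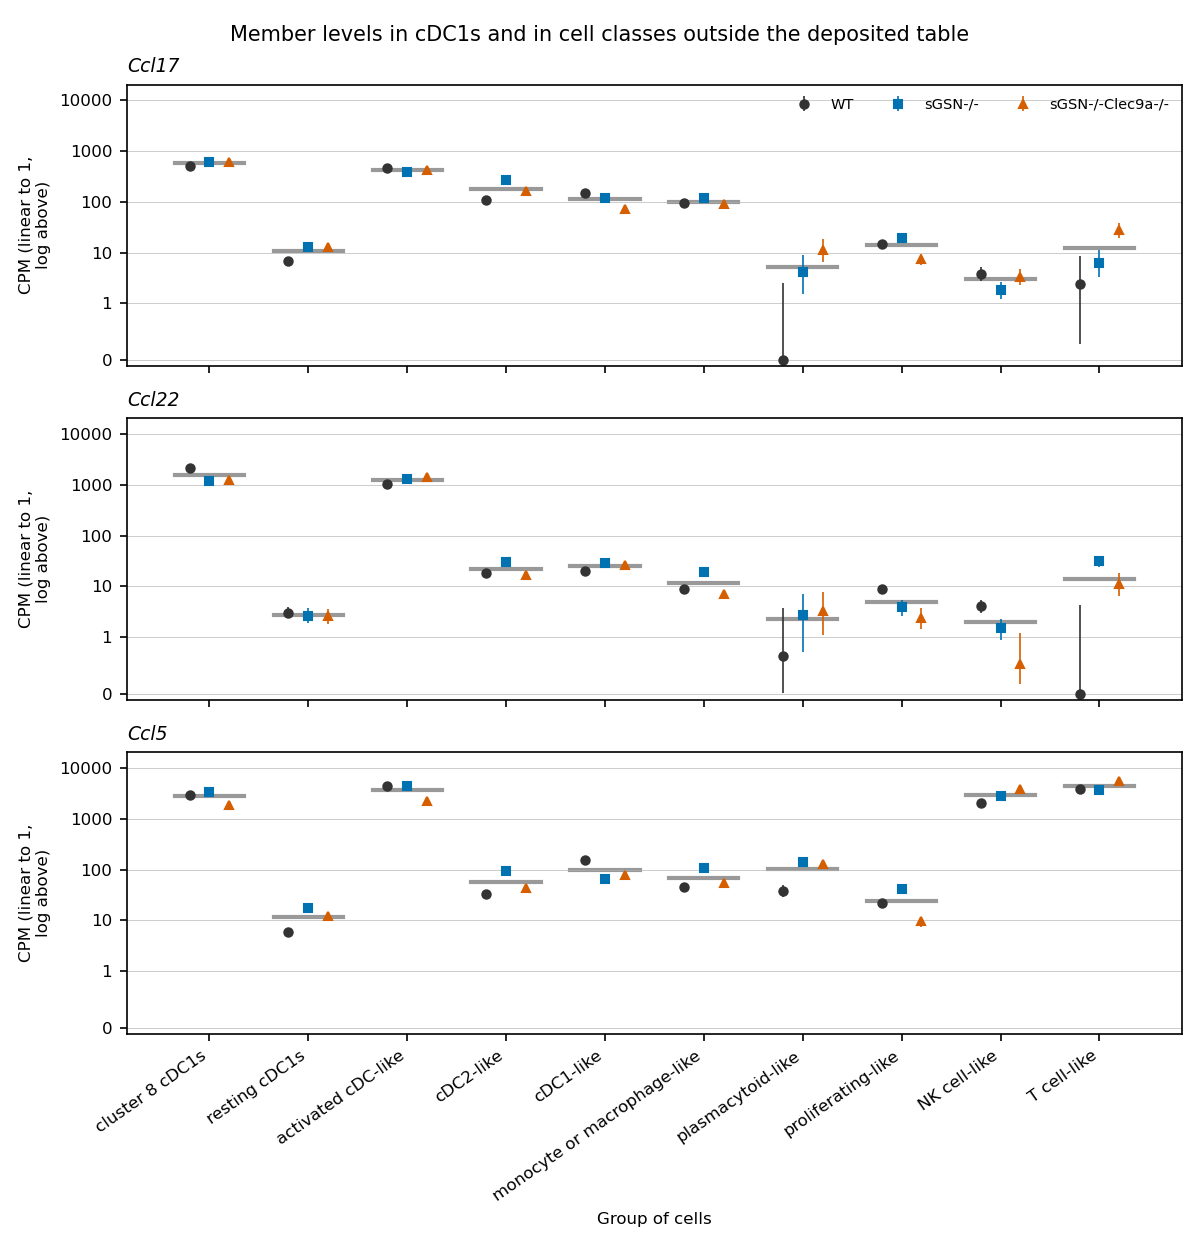
Level of each member (CPM, axis linear up to 1 and logarithmic above) in cluster 8 and resting cDC1s of the table and in 8 cell classes outside it, a point per library with its exact 95% Poisson interval and a grey bar for the mean. *Ccl22* is high in cluster 8 and in activated cDC-like cells (1525 and 1239 CPM), and *Ccl17* also reaches 176 CPM in cDC2-like cells. For *Ccl5* the ranges of T cell-like, NK cell-like and activated cells overlap.

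To set the members' levels in both activated groups against those in cells low in *Ccr7*, the activated cells outside the table, cDC2-like cells, cluster 8 and resting cDC1s were compared in a fit of 12 sums over 11281 genes. All 3 members rose from cDC2-like to activated cells, where 35.7% of the genes tested were called (17.8% higher and 17.9% lower). The log2 fold change was 1.22 (standard error 0.238, adjusted p = 0.00043, edgeR) for *Ccl17*, 5.77 (0.231, 1.5e-13) for *Ccl22* and 5.9985 (0.402, 3.6e-10) for *Ccl5*, each higher in all 3 libraries. Markers of other cells moved too. In the same comparison 6 of 8 macrophage, 5 of 7 NK, 3 of 5 T cell and 3 of 7 cDC1 markers tested were called higher and 5 of 6 cDC2 markers lower. Another 1 of the 8 macrophage markers was lower. Of 5 proliferating markers 3 were higher and 0 lower, and of 5 pre-cDC markers 1 was higher and 2 lower. The 8 macrophage genes together stood at 1051, 1375 and 1838 CPM in the activated cells, most of all *Apoe*, and at 370.5, 370.5 and 370.8 CPM in cDC2-like cells, and whether this bears on the members was not tested. Between activated cells outside the table and cluster 8, 0 of 3 members were called, where 21.1% of the genes tested were (9.44% higher and 11.6% lower). At an unadjusted p under 0.05 it was 2, and DESeq2 called 0. The values were -0.63 (0.247, 0.076) for *Ccl17*, -0.52 (0.190, 0.06) for *Ccl22* and 0.23 (0.326, 0.68) for *Ccl5* (edgeR). With the library as a block the first 2 passed, at -0.59 and -0.51 (adjusted p = 0.025 and 0.036, edgeR). *Ccl17* also passed without the WT library, at -0.81, where *Ccl22* was at -0.08.

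The size of these differences was unlike. The difference from cDC2-like to activated cells outside the table, minus that from resting cDC1s to cluster 8, was called lower for all 3 members, where 14.5% of the genes tested were called (5.92% higher and 8.56% lower): -4.67 (standard error 0.361, adjusted p = 1.1e-08, edgeR) for *Ccl17*, -3.44 (0.328, 2.1e-07) for *Ccl22* and -2.04 (0.497, 0.0072) for *Ccl5*. Other genes were called in this contrast too. Of 6 activated cDC markers 4 were lower and 1 higher, and of 6 cDC2 markers 5 were lower and 0 higher. Of the 11 IL-4, TSLP and GM-CSF signalling genes listed below 8 were lower and 0 higher. Of the 10 NF-κB and interferon regulators 5 were lower and 2 higher. The starting levels of the members were unlike. Resting cDC1s had *Ccl17* at 10.8 ± 3.49, *Ccl22* at 2.79 ± 0.251 and *Ccl5* at 11.8 ± 5.87 CPM, and cDC2-like cells had them at 176 ± 79.1, 21.998 ± 7.76 and 56.8 ± 33.2 CPM. The classes outside the table were rebuilt here, the activated class carries markers of several cell types, and they need not hold the cells the authors would name.

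Some receptors of the members were looked up in the same cells. *Ccr4*, the receptor gene of CCL17 and CCL22, gave 8 UMIs in the 30209 barcodes, 3 in T cell-like, 3 in monocyte- or macrophage-like, 1 in NK cell-like and 1 in cDC1-like cells outside the table, and 0 in the table. *Ccr3* gave 17 UMIs, 11 of them in T cell-like barcodes. *Ccr1* was highest in cDC2-like (211 ± 8.24 CPM) and monocyte- or macrophage-like cells (179 ± 9.36 CPM) and was at 4.19 CPM over all cDC1s.

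Genes around the members are given as counts of fixed lists, beside all genes tested. Of 17 other CC chemokine genes 6 could be tested in cluster 8, 1 higher and 4 lower than in resting cells, beside 25.7% and 24% of all genes tested, with a median log2 fold change of -1.10 against -0.05 over all genes. *Ccl9* rose (2.39, adjusted p = 3.3e-05, edgeR), while *Ccl7*, *Ccl2* and *Ccl6* fell (-2.56, -2.16 and -1.44). In cluster 10, where 8.53% of all genes rose and 6.53% fell, *Ccl4* rose (0.59, adjusted p = 0.04, edgeR) and *Ccl7*, *Ccl2* and *Ccl6* fell (-4.37, -4.09 and -1.50). Outside the table, 3 of 8 rose from cDC2-like to activated cells, *Ccl9* (1.86), *Ccl7* (1.14) and *Ccl6* (0.91), and 0 fell, beside 17.8% and 17.9% of all genes tested, with a median of 0.37 against -0.04 (edgeR). In the difference between this step and that from resting cDC1s to cluster 8, 3 of the 8 were called higher and 0 lower. Of all genes tested 5.92% and 8.56% were, and the median was 0.50 against 0.03 (edgeR).

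Of 11 genes listed for IL-4, TSLP and GM-CSF signalling, 8 rose in cluster 8, where 25.7% of all genes tested did, with a median log2 fold change of 1.70 against -0.05 over all genes. The largest were *Il7r* (5.79), whose product pairs with that of *Crlf2* in the TSLP receptor, *Il2rg* (4.85), the common chain of the IL-4 and IL-7 receptors, *Stat5a* (3.03) and *Irf4* (1.97), all called (edgeR). In cluster 10, 4 of the 11 rose beside 8.53% of all genes, led by *Il2rg* (2.84) and *Il4ra* (1.34), the gene of the IL-4 receptor chain, with a median of 0.40 against -0.04. Against cluster 10, cluster 8 had 7 of these genes higher and 1, *Crlf2*, lower, beside 15.7% and 12.5% of all genes. Outside the table, 5 rose from cDC2-like to activated cells beside 17.8% of all genes, among them *Stat5a* (1.79) and *Il7r* (1.71), and *Crlf2* fell (-1.02). For the 10 NF-κB and interferon regulators, 8 rose in cluster 8, led by *Relb* (4.51), *Irf1* (2.84), *Nfkb2* (2.72) and *Nfkb1* (2.30), with a median of 2.0021, and 9 rose in cluster 10, led by *Irf1* (4.14), *Relb* (1.87) and *Irf7* (1.70). In cluster 9, where *Ccl22* was the only member called, 6 of these 10 rose and 1 of the 11 signalling genes, beside 3.99% of all genes. Another 1 of the 11 fell, beside 1.32% of all genes.

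By Pearson correlation of log2(CPM + 1) over the 36 sums of 12 clusters and 3 libraries, among 8243 genes, the pattern of *Ccl17* was most like those of *Socs2* (0.818), *Glipr2* (0.810), *Spred1* (0.808), *Ccl22* (0.799) and *Pdcd1lg2* (0.794). *Ccl22* was most like *Mab21l3* (0.880), *Cd63* (0.874), *Snn* (0.869), *Zmynd15* (0.864) and *Mir155hg* (0.856), with *Ccl17* in place 25. *Ccl5* was most like *Mreg* (0.883), *Nudt17* (0.883), *Rasa2* (0.882), *Atxn1* (0.878) and *Tmem123* (0.873). For *Ccl5* the other members were not among the first places, with *Ccl22* in place 209 (0.608) and *Ccl17* in place 418 (0.485) of the 8243 genes. Sums of 1 library share their mice and their depth, and the coefficients are a description.

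*Ccl22* (chr8:94745590-94751699) and *Ccl17* (chr8:94810453-94812036) lie on the plus strand 58753 bases apart in GRCm38, with *Cx3cl1* (chr8:94772009-94782427), the gene of another chemokine, between them. *Cx3cl1* was at 41.2 ± 9.32 CPM in cluster 8 and 0.650 ± 0.118 CPM in resting cells, so all 3 genes of this stretch were higher in cluster 8 in their mean. The outer neighbours showed no such gap, with *Ciapin1* at 25.7 and 23.1, *Coq9* at 7.09 and 10.2 and *Arl2bp* at 29.5 and 31.4 CPM, and *Pllp* was at 0 and 0.0158 CPM. *Ccl5* (chr11:83525778-83530518, minus strand) lies between *Heatr9* (3.92 ± 3.43 and 0.0249 CPM in cluster 8 and resting cells) and *Ccl9* (16.5 and 3.44 CPM). Beyond them lie *Taf15*, at 53.3 and 52.1 CPM, and *Ccl6*, at 25.5 and 68.6 CPM.

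Promoters are shown because *Ccl17* and *Ccl22* were found together in cells of cluster 8. Sequences of RefSeq genes on GRCm38.p6 were matched for 2 of the 3 members. The first 250 bases of each were searched on both strands for 5 motifs, for *Ccl17* all before the annotated gene. The motifs were STAT (TTCNNNGAA), a STAT6 type (TTC and GAA 4 bases apart), a κB type (GGGANNTTC), an interferon response type (GAAANNGAA) and TATAAA. Of 32851 promoters of that length, 7.02%, 5.85%, 3.23%, 7.13% and 12.4% held each motif. The stretch before *Ccl17* (chr8:94810203-94810452, plus strand) held a STAT6 type match from base -154 to -145 and a STAT match from -99 to -91, both in capitals below. The 250 bases searched for *Ccl22* end at 94745683, inside the annotated gene, and held none of the 5. Only 156 of them precede that gene, fewer than for *Ccl17*, and these are shown (chr8:94745434-94745589, plus strand). A match is a description of letters and not of a bound site.
Ccl17: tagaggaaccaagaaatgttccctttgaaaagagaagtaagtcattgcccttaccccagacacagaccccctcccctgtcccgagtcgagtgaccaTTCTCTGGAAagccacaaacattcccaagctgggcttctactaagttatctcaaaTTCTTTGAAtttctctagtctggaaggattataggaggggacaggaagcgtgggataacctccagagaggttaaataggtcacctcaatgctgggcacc
Ccl22: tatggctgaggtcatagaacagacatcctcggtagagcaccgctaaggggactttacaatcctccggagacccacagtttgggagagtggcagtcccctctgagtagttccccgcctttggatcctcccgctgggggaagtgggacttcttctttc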

How the data were processed

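The authors' matrices hold raw UMI counts per gene and barcode, made with Cell Ranger on the mm10 (GRCm38) transcriptome. The deposited table gives the library name, the UMI total and the cluster number of each cDC1, from the authors' Seurat integration and clustering. Sums of raw counts per group of cells and library were tested with edgeR 4.0.16 (quasi-likelihood, TMM factors, filter on low counts) in R 4.3.3, with DESeq2 1.42.0 as the alternative. A first fit had 18 sums and a second 12.

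All 28855 barcodes that passed filters on genes (at least 200) and mitochondrial share were clustered in Python 3.11.15 with scanpy 1.11.5 and leidenalg 0.10.2, without the members, into 24 clusters, of which 16 were named from marker lists. No doublets were removed in the values reported, and the 6% of barcodes per library with the highest Scrublet score were left out as an alternative. numpy 2.4.6, scipy 1.17.1, pandas 2.3.3 and matplotlib 3.10.9 were used.

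Sums of 1 library come from the same pool of mice. After group means were removed, their median correlation within a library was 0.0796, 0.0575 and 0.0962 in the first fit and 0.0839, 0.106 and 0.0683 in the second. The fits carried no block by design, and a block was run as an alternative. Besides the members and 3 receptors, list genes past the threshold with the largest absolute log2 fold change (up to 4 per list and comparison), the 5 genes most alike to each member, the 2 protein-coding neighbours on each side and cell type markers were named. Some genes that this rule names are not reported here. The members and lists were chosen with earlier results of these data known. The comparisons and alternatives were fixed before the counts were examined here, and the classes outside the table were then built from those counts. The tests were also run on simulated counts, drawn as independent sums with a fixed dispersion. The real sums share libraries, so that run does not show how firm the calls are.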

Additional observations from a re-analysis of the deposited data

Results flagged for a closer look

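The difference from cDC2-like to activated cDC-like cells outside the table was smaller than that from resting cDC1s to cluster 8 for the 3 members, by a test of the contrast itself (edgeR quasi-likelihood, BH adjusted). The log2 difference was -4.67 for *Ccl17*, -3.44 for *Ccl22* and -2.04 for *Ccl5*. With each library left out in turn it ran from -4.85 to -4.22, from -3.67 to -3.23 and from -2.14 to -1.77. Between activated cells outside the table and cluster 8, 0 of 3 members were called, at -0.63, -0.52 and 0.23 (edgeR). With the library as a block *Ccl17* and *Ccl22* were called lower there. Starting levels were unlike: *Ccl17*, *Ccl22* and *Ccl5* had means of 10.8, 2.79 and 11.8 CPM in resting cDC1s. In cDC2-like cells the means were 176, 21.998 and 56.8 CPM. The part of the starting levels in the contrast was not tested. The members were not alone in the lower contrast. Of 6 activated cDC markers 4 were called lower and 1 higher, and of the 11 signalling genes 8 were lower and 0 higher. Of all genes tested 8.56% were lower and 5.92% higher. The activated class also carries macrophage, NK and cDC1 markers at higher levels than cDC2-like cells, and the part of its make-up in these values was not tested.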

How the results depend on the processing

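Of 285 values of the members under other settings, 261 kept their direction and side of the threshold, 20 newly passed it, 2 no longer did and 2 reversed. DESeq2, scaling without TMM factors and leaving out the highest Scrublet scores changed 0 of 27 each.

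Without the filter on low counts, early *Ccl17* (0.75) and *Ccl5* (0.92), cluster 7 *Ccl17* (-1.04) and *Ccl22* (2.03), cluster 9 *Ccl17* (0.89) and activated cells outside the table against cluster 8 (*Ccl17* -0.64, *Ccl22* -0.52) passed. With the library as a block early *Ccl5* (0.93), cluster 7 *Ccl22* (2.10) and activated cells against cluster 8 (*Ccl17* -0.59, *Ccl22* -0.51) passed, and the block changed no other call. *Ccl22* in that comparison also passed in thinned cells (-0.63) and with cDC1s reclustered without the members (-0.54). Without cells that held an NK or T cell UMI, early *Ccl5* (0.99) and cluster 7 *Ccl22* (2.17) passed. The cause was not tested.

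With each library left out, early *Ccl17* ran from -0.21 to 1.26 and *Ccl5* from 0.78 to 1.04, cluster 7 *Ccl22* from 1.77 to 2.42, cluster 9 *Ccl22* from 3.38 to 3.78 and cluster 10 *Ccl22* from 2.33 to 6.10. *Ccl17* in cluster 8 against 10 ran from -0.31 to 1.45, and in activated cells against cluster 8 from -0.81 to -0.43. The 2 reversed values were early *Ccl17* (-0.21) and cluster 8 against 10 *Ccl17* (-0.31).

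Thinning, with fewer genes tested (5315 and 8751), lowered the genes called: early 2919 to 1861, cluster 7 1525 to 791, cluster 9 454 to 245, cluster 8 4242 to 2409, cluster 10 1285 to 544, cluster 8 against 10 2408 to 1258, activated against cDC2-like cells 4032 to 2548, activated cells against cluster 8 2379 to 906 and the difference 1634 to 759. With a library left out, and so fewer samples, these counts ran from 1505 to 2389, 847 to 1233, 221 to 352, 2931 to 4139, 759 to 875, 1581 to 1986, 2533 to 3569, 1086 to 2222 and 827 to 1536. Thinning moved the resting shares with a UMI to 1.66% for *Ccl17*, 1.11% for *Ccl22* and 4.31% for *Ccl5*.

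Without TMM factors genes called higher and lower went from 1004 and 521 to 773 and 928 in cluster 7, 2191 and 2051 to 1718 and 2915 in cluster 8, 1342 and 1066 to 954 and 1612 in cluster 8 against 10, 1065 and 1314 to 1658 and 780 in activated cells against cluster 8, and 668 and 966 to 1165 and 720 in the difference. The all-gene median moved from -0.05 to -0.24 in cluster 8, 0.02 to -0.18 in cluster 8 against 10, 0.03 to 0.23 in activated cells against cluster 8 and 0.03 to 0.21 in the difference. DESeq2 moved cluster 10 from 728 and 557 to 1053 and 433.

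The 3 libraries, 1 per genotype, limit each test, and clusters 10 and 11 hold too few cells for values that rest on single cells to be firm.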
